A study of Mus musculus with 6 samples.

Results

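Transcript levels of 5 RNA adenosine deaminase genes, Adat1, Adat2, Adat3, Adar and Adarb1, are described here in mouse LSK cells of wild-type and NIKaly/aly mice. LSK cells lack lineage markers and carry Sca-1 and c-Kit, a fraction of blood-forming cells that holds the stem cells and multipotent progenitors. The gene Map3k14 encodes NIK, a kinase at the head of the alternative NF-kB pathway, and aly is a point mutation that leaves it defective. The 5 genes were taken by name from the array annotation and have 8 of the 55681 probes, and 5 of the 34821 gene names, on a 1-colour Agilent mouse array. Adat2 was picked because it read higher in NIKaly/aly on these same arrays, so its difference between genotypes is given as a description without a test. The other 4 genes joined it for what they encode.

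RNA came from freshly sorted cells, and no age, sex or strain is given for either genotype in the labels used here. There were 3 wild-type samples, numbered 1, 3 and 5, and 3 NIKaly/aly samples, numbered 2, 4 and 6, each hybridised to 1 array. Separate animals are not stated, and p-values therefore describe the spread among these samples alone, part or all of which may be technical. All 6 arrays lie on 1 slide, with samples 1 to 4 in slide row 1 and samples 5 and 6 in row 2. Wild-type arrays lie only in slide columns 1 and 3, and NIKaly/aly arrays only in columns 2 and 4. Genotype and slide column therefore cannot be told apart in any difference given here. The share of spots well above background lay between 33.1% and 45.6% per array, and having 6 arrays limits the precision. Levels are log2 signals relative to each array's 75th percentile. Values are listed in the order of samples 1, 3 and 5 for wild type and of samples 2, 4 and 6 for NIKaly/aly. They can be compared between arrays for 1 probe but not between probes.

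Deamination turns adenosine in RNA into inosine, which pairs like guanosine. ADAT2 and ADAT3 form 1 enzyme, in which ADAT2 is the catalytic subunit and ADAT3 its partner, and it makes the inosine at the wobble position of the anticodon of a set of transfer RNAs. ADAT1 modifies an adenosine beside the anticodon of alanine transfer RNA. ADAR and ADARB1 deaminate adenosines in double-stranded RNA. ADAR has an interferon-inducible form and keeps cellular double-stranded RNA from being sensed as foreign, and ADARB1 is best known for recoding glutamate receptor messages in the brain.

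The values below come from 60-base probes, placed by the array files on the mm9 build. The files do not say whether a probe lies in coding or untranslated sequence. The first 30 bases of 5 of them are shown as the array files give them, because the results turn on Adat2 and because the probes of Adar and of Adat1 gave different patterns over the arrays.
Adat2, chr10:13282655-13282714, plus strand: gaaatcctgattctgtaatgatcaacgtct
Adar probe 1, chr3:89555266-89555325, plus strand: aagtccccacctcccttttctcaagggaag
Adar probe 2, chr3:89557158-89557217, plus strand: taatcatgtgtaagaattgtcaatgcttga
Adat1 probe 1, chr8:114495930-114495989, minus strand: cctctgtcctcctgtctgtaaagatttctc
Adat1 probe 3, chr8:114492306-114492365, minus strand: aggatacagccgtttgcgtcctggatcaga
Probes of a gene are numbered from the highest mean level to the lowest. Adat1 probe 1 was designed against an Ensembl transcript, and the other 2 Adat1 probes against a RefSeq transcript.

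Adat2, the catalytic subunit of the wobble deaminase, read higher in NIKaly/aly. Its level was 1.26, 0.62 and 0.10 in the wild-type samples, and 2.82, 2.02 and 2.02 in the NIKaly/aly samples. The lowest NIKaly/aly sample thus lay above the highest wild-type sample. The means were 0.66 ± 0.58 (SD, n = 3) and 2.29 ± 0.46 (SD, n = 3), a log2 difference of 1.62 ± 0.38 (SE), or 3.08-fold. Across the 15682 genes tested, 2.68% had groups that did not overlap with NIKaly/aly higher, and 2.07% differed by at least 1 log2 unit in either direction. Adat2 ranked at number 30 from the highest difference, and since it was chosen on this comparison nothing is read from that place.

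Adat2 has a single probe on the array, which was well above background on all 6 arrays. Its processed signal was 113, 345 and 86.2 in the wild-type samples and 884, 817 and 206 in the NIKaly/aly samples. These signals were 5.20 to 42.4 times the lowest signal called well above background on the same array. In unscaled signal the groups overlapped, since wild type 3 was brighter than NIKaly/aly 6. The 75th percentile was 225 on the array of wild type 3 and 50.8 on that of NIKaly/aly 6.

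Within slide row 1, Adat2 was higher in NIKaly/aly by 1.48. In row 2, which holds 1 array of each genotype, it was higher by 1.92. Between samples with consecutive numbers, which lie side by side on the slide, it was higher in NIKaly/aly by 1.56 (samples 1 and 2), 1.40 (3 and 4) and 1.92 (5 and 6). Without samples 1 and 2 the difference was 1.66. Leaving out 1 array gave 1.35 to 1.92, and normexp background correction with quantile normalisation gave 1.24. Because the groups were apart, the differences within rows, between consecutive samples and with arrays left out had to be above 0.

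**Figure D1:**
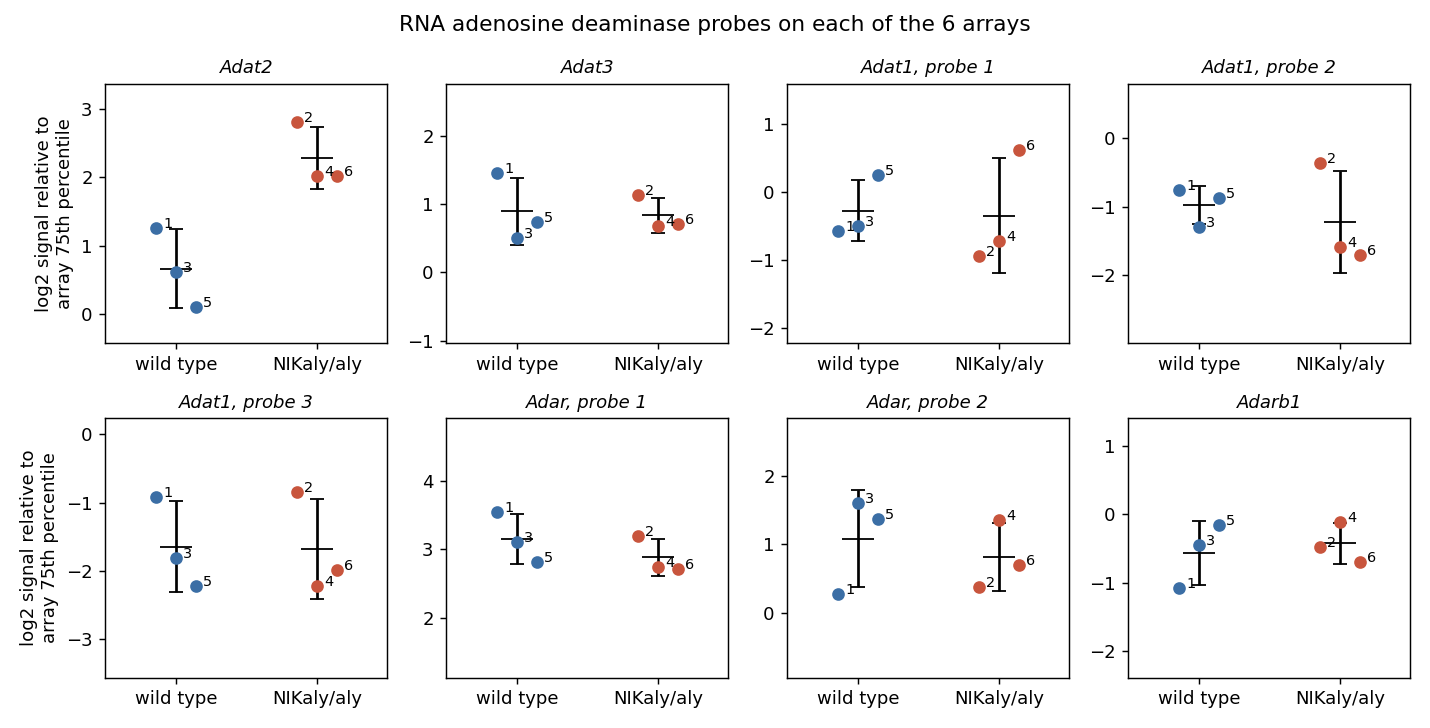
Level of each of the 8 probes, as log2 signal relative to the array's 75th percentile, in wild type (blue) and NIKaly/aly (red). Points are single arrays with their sample numbers, horizontal bars are means and error bars are SD (n = 3), and every panel spans the same log2 range. The groups are apart for Adat2 and overlap for the other 7 probes.

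Adat3, the partner subunit, read 1.45, 0.50 and 0.73 in the wild-type samples and 1.14, 0.68 and 0.71 in the NIKaly/aly samples. Samples 1 and 2 were the highest and the genotypes overlapped. NIKaly/aly differed from wild type by -0.05 ± 0.33 (SE), less than the spread among samples (adjusted p = 0.99997 in limma, Benjamini-Hochberg). The sign turned positive with median scaling (0.045), array weights (0.078) or without samples 1 and 2 (0.077). The difference ranged from -0.25 to 0.22 when 1 array was left out.

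The ratio of the 2 subunits within an array does not change when all signals of the array are scaled by a common factor. Background correction and quantile normalisation can change it. With normexp background correction and quantile normalisation, Adat2 differed by 1.24 and Adat3 by -0.053. The log2 ratio of Adat2 to Adat3 signal was -0.19, 0.12 and -0.63 in the wild-type samples, and 1.68, 1.34 and 1.31 in the NIKaly/aly samples. The means were -0.23 ± 0.38 (SD, n = 3) and 1.44 ± 0.20 (SD, n = 3). Only the change of this ratio between arrays is informative, not its level, because the probes differ. The ratio rests on the same Adat2 values, so it is no further support, and it shows unequal change without showing that Adat3 was constant.

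Adat1, which acts on alanine transfer RNA, was read by 3 probes that ordered the samples differently. Probe 1 read -0.57, -0.50 and 0.24 in the wild-type samples and -0.95, -0.72 and 0.61 in the NIKaly/aly samples, so that samples 5 and 6 were the highest. Probe 2 read -0.76, -1.30 and -0.87 in the wild-type samples and -0.36, -1.59 and -1.71 in the NIKaly/aly samples, with samples 1 and 2 the highest. Probe 3 read -0.91, -1.81 and -2.22 in the wild-type samples and -0.85, -2.22 and -1.98 in the NIKaly/aly samples, with samples 1 and 2 the highest. The genotypes overlapped by every probe. Whether each of these probes reads Adat1 transcripts alone was not tested.

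Probe 1 of Adat1 differed by -0.08 ± 0.48 (SE), probe 2 by -0.25 ± 0.46 and probe 3 by -0.04 ± 0.54 (limma, Benjamini-Hochberg adjusted p = 0.99997 for each). Each difference was smaller than its error. Probe 1 was well above background on all 6 arrays, probe 2 on 5 and probe 3 on 4. With probe 1, the direction turned with median scaling (0.022), with normexp and quantile normalisation (0.0042) and without samples 1 and 2 (0.074), and leaving out 1 array gave -0.56 to 0.22.

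Adar, the deaminase of double-stranded RNA that is made in most cells, has 2 probes on the array, and each was well above background on every array. Probe 1 read 3.55, 3.10 and 2.82 in the wild-type samples and 3.19, 2.74 and 2.72 in the NIKaly/aly samples. Each NIKaly/aly sample lay below the wild-type sample numbered before it, by 0.35, 0.37 and 0.10 log2 units, yet the groups overlapped. Probe 2 read 0.27, 1.61 and 1.37 in the wild-type samples and 0.38, 1.35 and 0.70 in the NIKaly/aly samples. Samples 1 and 2 were thus the highest by probe 1 and the lowest by probe 2.

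The 2 Adar probes gave nearly the same genotype difference, -0.27 ± 0.30 (SE) for probe 1 and -0.27 ± 0.43 for probe 2 (limma, Benjamini-Hochberg adjusted p = 0.99997 for both). Neither was larger than the spread between samples. Probe 1 stayed below 0 in all 19 alternative settings, from -0.44 to -0.077, and without wild type 1 the difference was the smallest. The changes of filter and the balanced blocks of slide row and consecutive sample numbers could not alter its difference. The adjusted p of probe 1 in limma was lowest, at 0.196, with slide column as a random block. In that setting a correlation of -0.88 within columns shrinks the error, and 1379 genes passed. In the other settings the adjusted p in limma was at least 0.711.

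Adarb1, the editor of glutamate receptor messages, was read by 1 probe, which was well above background on all 6 arrays. It read -1.07, -0.45 and -0.16 in the wild-type samples and -0.48, -0.10 and -0.69 in the NIKaly/aly samples. The lowest and the highest values came from wild type 1 and NIKaly/aly 4, and the groups overlapped. In wild type 1 the signal was only 1.45 times the lowest signal called well above background on that array. The genotypes differed by 0.13 ± 0.36 (SE; adjusted p = 0.99997 in limma, Benjamini-Hochberg). This became -0.097 without samples 1 and 2 and -0.12 to 0.33 when 1 array was left out.

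None of the 4 other genes passed the threshold of an adjusted p of 0.05, where 0 of 15682 genes (0%) passed in limma. The unadjusted p was under 0.05 for 208 genes (1.33%), none of them among the 4. By its brightest probe Adarb1 read higher in NIKaly/aly and the other 3 lower, where 48.5% of tested genes read higher. With consecutive sample numbers as a block, where 2 genes passed, none of the 4 did.

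**Figure D2:**
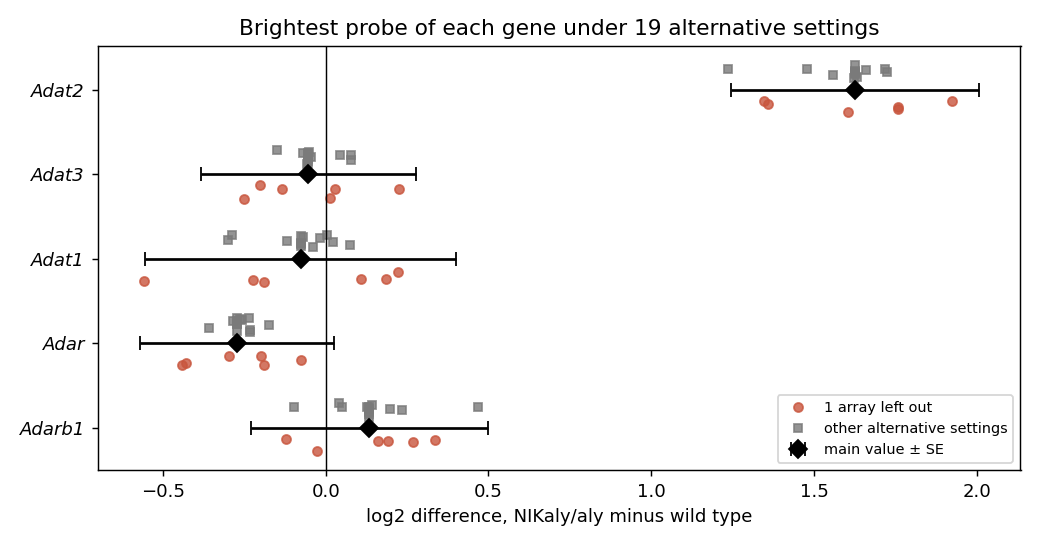
Log2 difference, NIKaly/aly minus wild type, for the brightest probe of each gene. Black diamonds are the main values with their SE, red points leave out 1 array each and grey squares are the other alternative settings. Adat2 lies between 1.24 and 1.92 throughout, Adar stays below 0, and Adat3, Adat1 and Adarb1 fall on both sides of 0.

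The genes next to Adat2 were read to see whether the locus moved as a whole, a choice made after the values of Adat2 were seen. In the RefSeq gene table (GRCm38.p6) Adat2 overlaps Pex3, a peroxisome assembly gene, and lies between Fuca2 and Aig1. Pex3 read 1.17, 0.81 and 0.44 in the wild-type samples and 1.59, 0.93 and 1.38 in the NIKaly/aly samples. It was higher in each NIKaly/aly sample than in the wild-type sample numbered before it, but the groups overlapped, and the difference was 0.49 ± 0.31 (SE; limma, Benjamini-Hochberg adjusted p = 0.99997). Fuca2, a fucosidase gene, differed by -0.09 ± 0.37 and Aig1 by 0.06 ± 0.27, both less than the spread between samples.

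Adat3 overlaps Scamp4, a gene for a secretory carrier membrane protein, in the same table. Scamp4 read 4.37, 3.72 and 3.35 in the wild-type samples and 4.06, 3.46 and 2.91 in the NIKaly/aly samples. The difference was -0.34 ± 0.40 (SE; limma, Benjamini-Hochberg adjusted p = 0.99997), and the groups overlapped. Adar overlaps Chrnb2 in the table, and Chrnb2 did not pass the filter on dim probes. Whether a member's probe also detects transcripts of an overlapping gene was not tested.

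By Pearson's r over the 6 arrays, the 5 tested genes with the pattern most like that of Adat2 were Tbc1d15 (0.991), Hdgfrp3 (0.990), Pcbd1 (0.988), Slc25a30 (0.984) and Mapk8ip1 (0.984). They were picked as the highest of all tested genes with a symbol, and the 6 points share 1 slide and the scaling of each array. Pcbd1, a cofactor-recycling enzyme gene, read 1.84, 1.57 and 1.48 in the wild-type samples and 2.71, 2.26 and 2.20 in the NIKaly/aly samples. Its difference of 0.76 was smaller than that of Adat2. Tbc1d15 differed by 0.19, Hdgfrp3 by 0.74, Slc25a30 by 0.48 and Mapk8ip1 by 0.85. These genes were picked for their likeness to Adat2, itself chosen on genotype. That they read higher in NIKaly/aly therefore follows from the choice and is no further result. Slc25a30 was well above background on 3 of the 6 arrays and the other 4 on all 6.

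**Figure D3:**
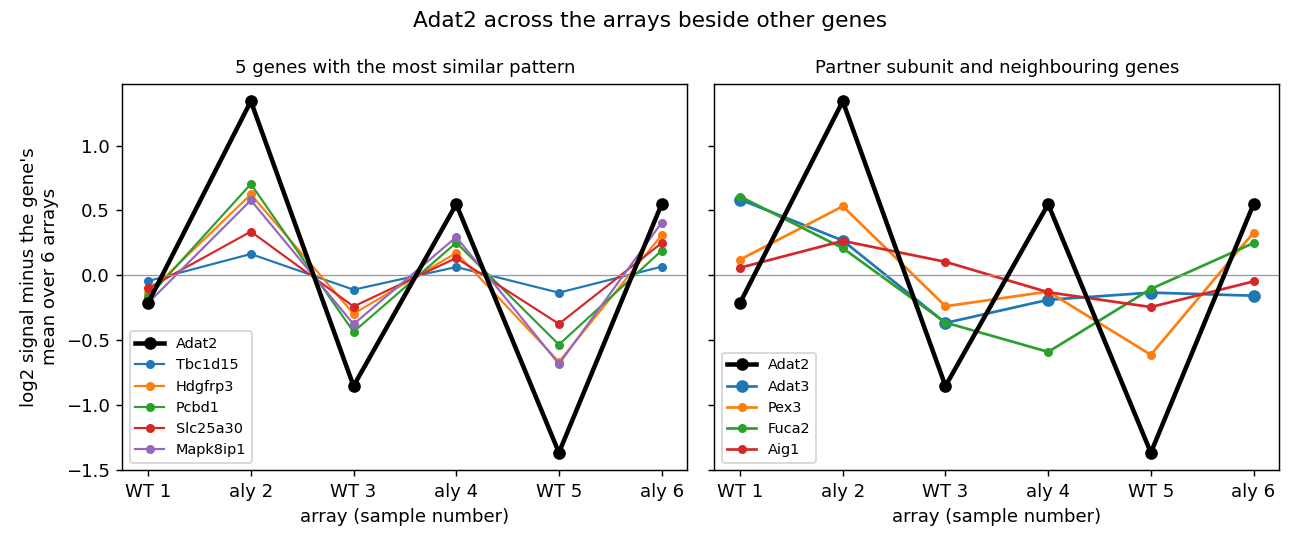
Level of Adat2 (black) and of other genes on each array, as log2 signal minus the gene's own mean over the 6 arrays. Lines only link the points of a gene. The left panel shows the 5 genes with the most similar pattern, Pearson's r 0.984 to 0.991. The right panel shows Adat3 and the genes beside Adat2, where Pex3 is higher in each NIKaly/aly array than in the wild-type array numbered before it.

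Other enzymes that modify transfer RNA read higher about as often as lower. Of 57 listed, 56 were tested, of which 31 read higher and 25 lower in NIKaly/aly, with a median difference of 0.020 against -0.0081 over all tested genes. That median lay between -0.14 (without NIKaly/aly 2) and 0.19 (without wild type 1) when 1 array was left out. None passed the adjustment, none had an unadjusted p under 0.05, and none had groups apart. Ikbkap, which encodes the scaffold of the Elongator complex for wobble uridines, differed by -0.50 ± 0.31 (SE), Ctu1, a wobble uridine thiolase gene, by -0.38 ± 0.35, and the methyltransferase gene Trmt13 by 0.76 ± 0.70. These 3 had the smallest unadjusted p of the list, whose differences ran from -0.52 to 0.76.

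Aminoacyl-tRNA synthetases charge transfer RNAs with their amino acids. Of the 8 synthetases whose transfer RNAs receive wobble inosine, 7 were tested, with 3 higher, 4 lower and a median of -0.013, and -0.35 without NIKaly/aly 2 to 0.23 without wild type 1. Lars (leucine) differed by 0.26 ± 0.31 (SE), Sars (serine) by -0.19 ± 0.47 and Vars (valine) by -0.16 ± 0.39. All 12 synthetases of the other cytosolic transfer RNAs were tested, with 3 higher, 9 lower and a median of -0.071, and -0.42 without NIKaly/aly 2 to 0.21 without wild type 1. Among them Hars (histidine) read 2.70, 1.77 and 1.78 in the wild-type samples and 3.81, 2.94 and 2.29 in the NIKaly/aly samples, and its groups overlapped. Hars differed by 0.93 ± 0.44 (SE; limma, Benjamini-Hochberg adjusted p = 0.99997), Nars (asparagine) by -0.36 ± 0.30 and Dars (aspartate) by -0.20 ± 0.45.

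Among 15 other deaminases of nucleic acids and nucleosides, 7 were tested, with 1 higher, 6 lower and a median of -0.16. The median was -0.43 without NIKaly/aly 2 and turned positive when wild type 1 (0.040) or NIKaly/aly 6 (0.039) was left out. The other 8 did not pass the filter on dim probes. These include the ADAR relatives Adarb2, Adad1 and Adad2. Apobec3, a cytidine deaminase that restricts retroviruses, read 4.35, 3.33 and 3.57 in the wild-type samples and 2.57, 1.68 and 2.56 in the NIKaly/aly samples. Its groups did not overlap, as for 1.89% of all tested genes with NIKaly/aly lower. The difference was -1.48 ± 0.38 (SE; limma, Benjamini-Hochberg adjusted p = 0.99997). Its other 2 probes differed by -1.20 and -1.72, with groups that overlapped by the first of these and not by the second. Apobec1, the editor of apolipoprotein B messages, differed by -0.03 ± 0.29, the adenosine deaminase gene Ada by -0.17 ± 0.53, the guanine deaminase gene Gda by -0.46 ± 0.53 and Adal by 0.23 ± 0.40.

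Partners and regulators of ADAR proteins, with genes that handle inosine, gave 12 tested of 13, with 5 higher, 7 lower and a median of -0.011, and -0.15 without NIKaly/aly 2 to 0.20 without wild type 1. The helicase gene Dhx9 differed by -0.19 ± 0.50 (SE), Ilf2 by 0.14 ± 0.24, the splicing factor gene Srsf9 by 0.29 ± 0.29, Aimp2 by -0.24 ± 0.59 and Endov, which encodes an endonuclease that cuts at inosine, by -0.10 ± 0.38. No listed gene had an unadjusted p under 0.05. Of 19 transcripts known as ADAR targets, 9 were tested, with 2 higher, 7 lower and a median of -0.078. Of these, Gria3, a glutamate receptor gene, differed by -0.68 ± 0.42 and Cog3 by 0.21 ± 0.42. Leaving out wild type 3 (-0.25) or NIKaly/aly 2 (-0.24) made the median more negative, and leaving out wild type 1 (0.051) or NIKaly/aly 4 (0.056) turned its sign. Arrays read transcript level, so editing itself was not measured.

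Sensors of double-stranded RNA, which ADAR restrains, gave 17 tested of 18, with 5 higher, 12 lower and a median of -0.15. Leaving out NIKaly/aly 2 moved it to -0.25, wild type 3 to -0.23, wild type 1 to -0.058 and NIKaly/aly 6 to -0.022. The genes of the oligoadenylate synthetases Oas3 and Oas2 differed by -0.92 ± 0.40 (SE) and -0.94 ± 0.49, and the helicase gene Dhx58 by -0.47 ± 0.34. Oas3 was the 1 gene of the list with an unadjusted p under 0.05 (1.33% of all tested genes) and the 1 with groups apart, lower in NIKaly/aly (1.89% of all tested genes). The sensor genes Ifih1 and Eif2ak2 differed by 0.19 ± 0.26 and 0.25 ± 0.50. None passed the adjustment in limma.

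Interferon response genes share an inducer with 1 form of ADAR. Of 20 listed, 19 were tested, with 4 higher, 15 lower in NIKaly/aly and a median of -0.31. The median difference was -0.01 between samples 2 and 1, -0.50 between 4 and 3 and -0.61 between 6 and 5. It was -0.17 without NIKaly/aly 6, -0.48 without NIKaly/aly 2 and -0.54 without samples 1 and 2. An unadjusted p under 0.05 was found for 4 of them (1.33% of all tested genes). Among these, Cxcl10, a chemokine gene, read higher in NIKaly/aly, by 0.87 ± 0.34 (SE), with groups apart. Groups were apart and lower for 5 (1.89% of all) and apart and higher for 1 (2.68% of all), and none passed the adjustment. Usp18, which encodes a deconjugating enzyme, differed by -1.06 ± 0.41 (SE), Oasl1 by -0.78 ± 0.29 and Rsad2, an antiviral gene, by -0.77 ± 0.29. This direction was already known from earlier work on these arrays and is no independent support. Adar probe 1 differed by -0.27 ± 0.30 (SE), less than its error, and by -0.35, -0.37 and -0.10 between the same pairs of samples. Adar probe 2 differed by -0.27 ± 0.43 (SE), also less than its error, and by 0.11, -0.26 and -0.67 between these pairs. The 2 probes thus ordered the pairs differently. Whether the Adar probes read the interferon-inducible form, and any link of Adar to this list, were not tested.

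**Figure D4:**
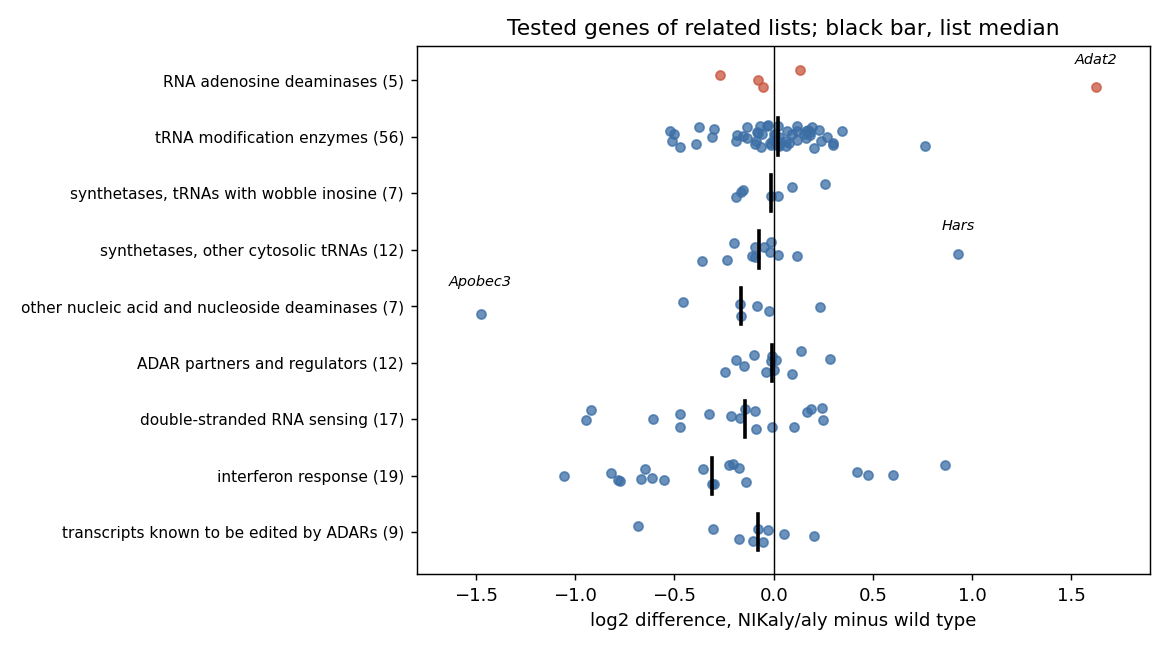
Log2 difference, NIKaly/aly minus wild type, of the tested genes of each pathway list (cell type markers are not drawn), with the number tested in parentheses. Points are genes, black bars are list medians, and the 5 RNA adenosine deaminases are in red without a bar. Adat2 at 1.62 and Apobec3 at -1.48 lie farthest from 0 among the genes drawn.

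The promoter table from RefSeq (GRCm38.p6), with 300 bases around each start, holds 1 entry each for Adat2, Adat3 and Adarb1, 3 for Adar and none used here for Adat1. The core of the interferon-stimulated response element, searched as GAAANNGAA on both strands, was found in 1 of these entries, at an Adar start, with 2 matches. It was found in 8.56% of 32851 promoters of this length. The match nearer to the start is shown because it is the motif tied to interferon induction, with the motif in capitals.
Adar, chr3:89730738-89730767, plus strand: ttttcaaggaaacGAAAGTGAActctgggg
An NF-kB site, searched on both strands as GGG and TTTCC with any 2 bases between, was found in 1.63% of promoters and in no entry of the 4 genes. A match is a description of letters, not a bound site, and no match says only that these letters are not in the window.

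Markers of the sorted cells and of others were read beside the Adat2 difference. Of 15 LSK markers 14 were tested, with 9 higher and 5 lower. Their summed signal relative to the 75th percentile was 431 to 490 in wild type and 521 to 555 in NIKaly/aly, groups that did not overlap. This sum has no matching share over all genes, and the brightest probes, those of Cd34 and Lmo2, weigh most in it. Of the single markers only 2, Procr and Lmo2, had groups apart, both higher (2.68% of all tested genes). Lmo2 differed by 0.29 ± 0.31 (SE). Procr, the endothelial protein C receptor gene, differed by 0.78 ± 0.28 (SE), Ly6a, which encodes Sca-1, by -0.68 ± 0.46 and Kit by 0.18, and Slamf1 did not pass the filter on dim probes. The part of this in the Adat2 difference was not tested.

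The summed signal of each mature cell list overlapped between genotypes, while single markers did not always. Erythroid markers (7 tested, all lower) summed to 11.4 to 404 in wild type and 9.06 to 202 in NIKaly/aly, and samples 1 and 2 held the highest value of each genotype. Mature neutrophil markers (12 tested, all lower) summed to 1144 to 7643 and 1250 to 4418, B cell markers (9 tested, all lower) to 37.8 to 136 and 20.0 to 69.3. T and NK cell markers (8 tested, 6 lower) summed to 76.8 to 240 and 85.5 to 199, and macrophage and dendritic cell markers (7 tested, 5 lower) to 40.0 to 127 and 33.4 to 80.0. Of the macrophage and dendritic cell markers, Csf1r (a growth factor receptor gene) differed by -1.17 ± 0.33 (SE), Cx3cr1 (a chemokine receptor gene) by -1.08 ± 0.40 and Itgax (an integrin gene) by -1.01 ± 0.38. These 3 had groups apart and lower (1.89% of all tested genes) and an unadjusted p under 0.05 (1.33% of all). None passed the adjustment in limma. The NK cell marker Klrb1c also had groups apart and lower, at -1.17 ± 0.52. The 2 macrophage and dendritic cell markers that read higher were H2-Aa (0.92 ± 0.81) and Cd74 (0.26 ± 0.85), and their groups overlapped. The erythroid gene Alas2, the B cell gene Pax5, the T cell gene Cd8a and the macrophage gene C1qa did not pass the filter on dim probes. In sorted bulk samples fewer cells of a type and less RNA per cell cannot be told apart. Samples 1 and 2 had the highest sum of their genotype for each of these 5 lists. The part of the mature cell markers in the Adat2 difference was not tested.

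Samples 1 and 2 also stood apart for several deaminase probes. Their mean was higher than that of samples 3 to 6 for Adat3 (1.29 against 0.65), Adar probe 1 (3.37 against 2.84), Adat1 probe 2 (-0.56 against -1.37) and Adat1 probe 3 (-0.88 against -2.06). It was lower for Adar probe 2 (0.32 against 1.26), Adat1 probe 1 (-0.76 against -0.09) and Adarb1 (-0.77 against -0.35). For Adat2 the mean was 2.04 against 1.19. These samples were set apart after their values were seen, so the means are descriptions with no test.

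Map3k14, the mutated gene, was well above background on all 6 arrays by both of its probes. The brighter one differed by 0.31 ± 0.48 (SE) and the other by 0.25 ± 0.46. A point mutation need not change transcript level, so this checks no label.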

How the data were processed

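Per the file headers, the authors scanned spot intensity and ran Feature Extraction 10.7.3.1, whose processed signal has background subtracted. The authors' deposited series table holds ratios, each equal within 0.1% to processed signal over the array's median. It was compared on the 55249 probes with 1 spot, and it is the same as median scaling.

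Log2 processed signal was set relative to the 75th percentile of the 59305 non-control spots of each array. Control and outlier-flagged spots were left out, and spots of 1 probe were averaged. Probes well above background on at least 3 of 6 arrays were tested (21217 with all values), by the brightest probe per gene (15682 genes), including all 8 member probes. limma 3.58.1 in R 4.3.3 (lmFit, eBayes with trend, 4 residual degrees of freedom, two-sided, Benjamini-Hochberg) compared genotypes. A fit over all tested probes gave the other probes. The script was tested on simulated data. Members, lists and alternatives were chosen with earlier results of these data known. Genes named are the members, the 5 most like Adat2, up to 3 per list by smallest unadjusted p, defining genes of a list, and Map3k14. Markers and neighbours named were chosen after their values were seen. Some genes that this rule names are not reported here.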

Additional observations from a re-analysis of the deposited data

How the results depend on the processing

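Each result was recomputed under 19 alternatives. The Adat2 difference stayed above 0, from 1.24 to 1.92, and moved by less than the 0.52 SD between samples. Adat2 was chosen on this comparison, so this range is a description and no support. With 1 probe, well above background on all arrays, the filters and the mean of probes could not change its 1.62. The row and consecutive-number blocks are balanced and could not either. Leaving out arrays could not turn its sign, since its groups were apart. Adat3 reversed with median scaling (0.045), array weights (0.078) and without samples 1 and 2 (0.077), and lay between -0.25 and 0.22 leaving out 1 array. Adat1 reversed with median scaling (0.022), with normexp and quantile normalisation (0.0042) and without samples 1 and 2 (0.074), and lay between -0.56 and 0.22 leaving out 1 array. Adarb1 reversed without samples 1 and 2 (-0.097), and lay between -0.12 and 0.33 leaving out 1 array. The cause was not tested. Genes past the threshold in limma numbered 10 with median scaling, 2 with no filter, 5 with array weights, 2 with consecutive sample numbers as a block, and 0 to 1 leaving out 1 array, against 0. They numbered 1379 with slide column as a random block, where a correlation of -0.88 within columns shrinks the error. Genes at an unadjusted p under 0.05 numbered 119 with median scaling, 133 with the filter on all 6 arrays, 4325 with the column block, 1153 with consecutive numbers, 695 with array weights, 327 without samples 1 and 2 and 92 in row 1, against 208. Genes with groups apart numbered 248 with median scaling, 1364 to 2451 leaving out 1 array, 3941 without samples 1 and 2 and 2418 in row 1, against 716, and fewer samples make separation easier. The genotypes share no replicate number, so the labels pair no samples, and the block of consecutive numbers was run only as an alternative. Signals near background limit Adat1 probes 2 and 3. In wild type 1, Adarb1 and Adat1 probe 1 were also dim, at 1.45 and 2.05 times the lowest signal called well above background.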
